A study of Mus musculus with 18 samples.

Results

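The starting populations of a pooled CRISPR knockout screen were examined, before any cell entered a mouse. They comprised 2 of the 18 libraries of the series, the ITPK1-WT and the ITPK1-KO pool, taken by their titles, which name them as baseline, with 1 library each. Ba/F3 is a mouse pro-B cell line that grows in interleukin-3, and the labels call the derivative used here sensBa/F3. Both pools carried the same lentiviral library of 252 sgRNAs, of which 24 were non-targeting and 228 targeted 76 genes, 3 to a gene. Per the design text the genes were gathered for roles in cell death, though genes of general growth and of restricted tissue expression are among them. Both pools were cultured for 10 days after transduction so that cells lacking a gene needed for growth would be lost. The ITPK1-WT pool was made from the parental line, whereas the ITPK1-KO pool was made from 6 single-cell clones mixed together, selected for a deleted Itpk1 gene and for the absence of an integrated vector. The pools were therefore transduced separately, and genotype, the makeup of the clones and the draw of cells at transduction cannot be told apart. The remaining 16 libraries came from cells recovered from the peritoneum of 8 hCD89-transgenic mice, 4 given PBS (vehicle) and 4 given anti-hHer2 IgA, 16 h after both pools were mixed and injected.

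In a growth screen each cell carries 1 sgRNA cassette as a barcode of the gene it lost. A knockout that slows growth or kills the cell is diluted by its neighbours, so its sgRNAs become scarce, while non-targeting sgRNAs, which cut nowhere in the genome, mark the neutral level. ITPK1 and IPMK are both kinases that add phosphates to inositol on the way to the highly phosphorylated inositols, which serve as cofactors of several protein complexes and of the necroptosis executioner MLKL. The ITPK1-KO pool thus adds a second lesion to each knockout of the library, and the comparison of the pools asks which knockouts are borne differently when ITPK1 is missing.

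The results turned on the sgRNAs of 6 genes, shown here because they were the scarcest in both pools or differed between them. Each is written 5′ to 3′ as the authors deposited it, with the 10 bases next to the PAM in capitals, the end at which a mismatch hinders cutting most. The sequence of the sgRNA that the authors used to delete Itpk1 is not given in the sources used here.
Itpk1 sg-1: gttcgaacggCCAAGCGATG
Itpk1 sg-2: cgaacttatcCGAAAGATCG
Itpk1 sg-3: ggtgggcgagTCCTACACAG
Ipmk sg-1: caaacgatagAACTTTGGCG
Ipmk sg-2: agacgccgtaGTATTTGGGC
Ipmk sg-3: ctctaccttcTGAATACTGG
Daxx sg-1: tcagcacatcTCCATAATCG
Daxx sg-2: ggagacatcaGACCACCCTG
Daxx sg-3: gcgggcctccTGCAAATACG
Grb2 sg-1: aaacacttacTTGACGGACA
Grb2 sg-2: aatacttcccGGCTCCGTCG
Grb2 sg-3: cagcaaacagCGGCATGACG
Txnl4b sg-1: actgtgtgtaAACCGGCGTG
Txnl4b sg-2: ccaggcgatcAAAAGCACTG
Txnl4b sg-3: catccagctgCAGACAGACG
Eif5b sg-1: tccgttcctaCCGTAGACAG
Eif5b sg-2: caaagcgaaaCGGAGGATTG
Eif5b sg-3: gaagagtcctGATTCTGATG

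The ITPK1-WT library held 562263 reads and the ITPK1-KO library 516561, with a median of 2296 and 2152 reads per sgRNA. A single count was 0. Reads carry no molecular identifiers, so every interval given here covers counting error only. With 1 library per pool no test between the pools was possible, and agreement over the 3 sgRNAs of a gene is the only replication. The abundance of an sgRNA is given as the log2 ratio of its reads, with 0.5 added, to the non-targeting median of its library, treated alike. That median was 3266.5 reads in the ITPK1-WT and 2836 in the ITPK1-KO library. The plasmid pool was not analysed here, so a low value joins growth to the share that an sgRNA had when the library was cloned.

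Non-targeting sgRNAs were the most abundant class. The median targeting sgRNA stood at 68.8% of the non-targeting median (ITPK1-WT) and at 73.9% (ITPK1-KO), and 209 and 202 of the 228 targeting sgRNAs lay below that median. sgRNAs against 6 genes with restricted tissue expression were no exception. These genes, such as Foxi1 of the inner ear and kidney and Sycp2 of the meiotic synaptonemal complex, had medians of −0.76 (ITPK1-WT) and −0.64 (ITPK1-KO), against −0.52 and −0.44 over all 76 genes. The non-targeting class was itself uneven. Its SD was 0.78 (ITPK1-WT) and 0.79 (ITPK1-KO), and 0.31 and 0.28 without 2 scarce members, NT-lib sg-8 (350 and 281 reads) and NT-lib sg-9 (1200 and 1198 reads).

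Knockouts of 3 genes with general roles in growth were the scarcest by the median of their sgRNAs in the ITPK1-WT pool, and were the scarcest after Ipmk in the ITPK1-KO pool. They were Txnl4b, a thioredoxin-like protein linked to RNA splicing, Grb2, the adaptor that couples growth factor receptors to Ras, and Eif5b, the GTPase that joins the ribosomal subunits at the start of translation. The summed reads of the sgRNAs of a gene are given next as a percentage of those of 3 median non-targeting sgRNAs. Txnl4b stood at 4.99% in the ITPK1-WT pool and 2.26% in the ITPK1-KO pool. Grb2 stood at 5.65% and 3.68%. Eif5b stood at 8.96% and 11.5%.

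All 9 of these sgRNAs were scarce in both libraries, at differing depths. Txnl4b had 334, 70 and 85 reads in the ITPK1-WT pool (sg-1 to sg-3) and 105, 23 and 64 in the ITPK1-KO pool. Grb2 had 73, 169 and 312 reads in the ITPK1-WT pool and 19, 72 and 222 in the ITPK1-KO pool. Eif5b had 550, 214 and 114 reads in the ITPK1-WT pool and 634, 210 and 136 in the ITPK1-KO pool. The least depleted sgRNA of each gene was the same in both pools: Txnl4b sg-1, Grb2 sg-3 and Eif5b sg-1.

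A gene was called scarce in a pool when the median of its 3 sgRNAs was at or below 1/2 of the non-targeting median, which is −1 on the log2 scale. By this rule 15 of 76 genes were scarce in the ITPK1-WT pool (19.7%) and 12 in the ITPK1-KO pool (15.8%), and 11 were scarce in both. All 3 sgRNAs passed the fold for 8 genes in the first pool and 7 in the second. The count rests on the high non-targeting level: measured against the median of all sgRNAs, 7 genes were scarce in the ITPK1-WT pool and 8 in the other. At 4-fold the calls came down to 4 genes in each pool, with Txnl4b, Grb2 and Eif5b in both, Itpk1 as the fourth in ITPK1-WT and Ipmk as the fourth in ITPK1-KO cells. The gene nearest the limit was Parp2, a DNA repair enzyme, whose middle sgRNA had 1632 reads in ITPK1-WT cells, just inside the limit. In ITPK1-KO cells Parp2 stood at −1.14, and the gene nearest the limit was Mag (−1.07). Just outside were the immune receptor gene 4732429D16Rik in ITPK1-WT (−0.93) and Dpysl4 in ITPK1-KO cells (−0.93). The naming rule does not cover Parp2, Mag, 4732429D16Rik and Dpysl4, which were chosen after their values were seen.

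**Figure D1:**
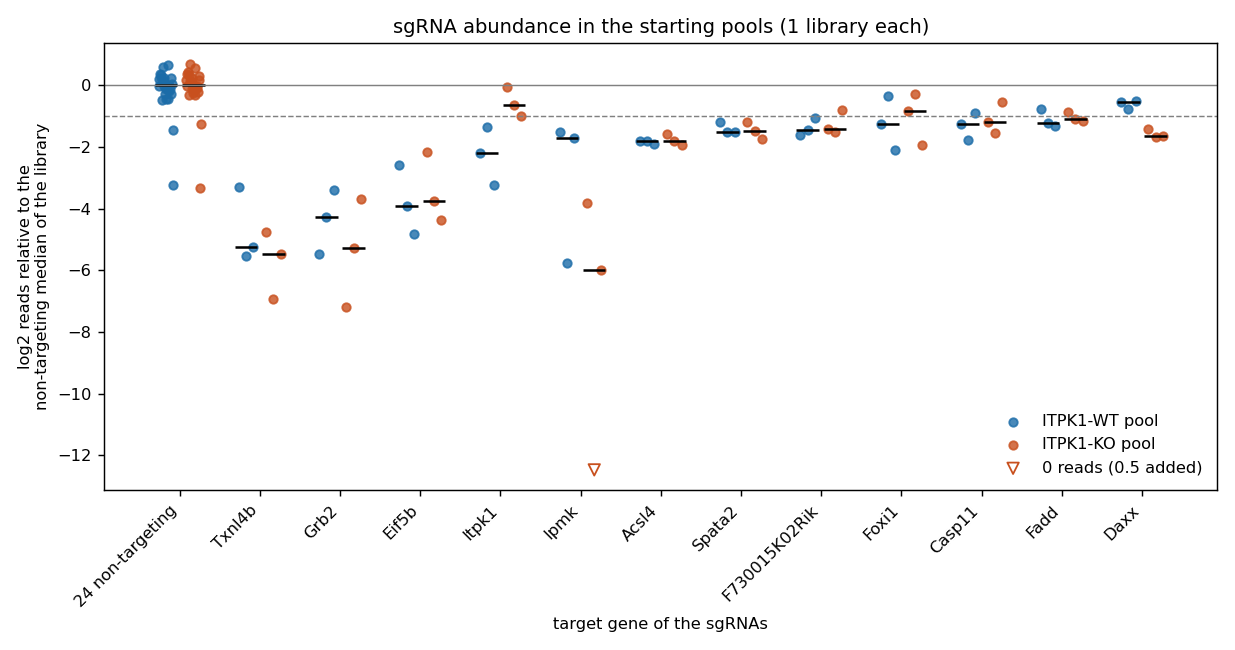
Abundance of each sgRNA (points, log2 relative to the non-targeting median of its library, 1 library per pool) for the non-targeting class and the 12 genes named by the rule on scarcity, with the median as a black bar; the dashed line is 1/2 of the non-targeting median. Txnl4b, Grb2 and Eif5b were low in both pools, Itpk1 was lower in ITPK1-WT, and Ipmk and Daxx were lower in ITPK1-KO cells; the open triangle is Ipmk sg-2, with 0 reads.

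Apart from Ipmk, described with the differences between the pools, the other genes scarce in both pools were far less so. Acsl4, the acyl-CoA synthetase that loads polyunsaturated fatty acids into membranes and so favours ferroptosis, had 3 sgRNAs of similar abundance. Its sgRNAs had 930, 933 and 873 reads in the ITPK1-WT pool and 949, 814 and 744 in the ITPK1-KO pool, a median of −1.81 and −1.80. Spata2, which brings the deubiquitinase CYLD to the TNF receptor complex, stood at −1.52 and −1.48, with all 3 sgRNAs past the fold in both. F730015K02Rik stood at −1.45 and −1.42, the inflammatory caspase Casp11 at −1.25 and −1.20, and Fadd, which links death receptors to caspase-8, at −1.22 and −1.09. Foxi1 passed in the ITPK1-WT pool (−1.26) and not in the ITPK1-KO pool (−0.84), a difference that was not tested.

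Scarcity could also be a property of 1 sgRNA alone. For 4 genes, 1 sgRNA was at or below 1/8 of the non-targeting median in both pools while at least 1 of its partners stayed above 1/2. Dpysl4 sg-3 had 18 reads in the ITPK1-WT pool and 15 in the ITPK1-KO pool, the lowest nonzero counts of both libraries. Ifnar1 sg-3, against a subunit of the type I interferon receptor, had 45 and 68 reads, while sg-1 and sg-2 stood between −0.43 and −0.39. Bad sg-2, against a BH3-only inducer of apoptosis, had 108 and 111 reads, and its partners stood between −0.71 and −0.35. Cd27 sg-1, against a TNF receptor family member of lymphocytes, had 141 and 142 reads, and its partners lay between −0.35 and −0.15. The median over 3 sgRNAs kept Bad, Cd27 and Ifnar1 out of the scarce genes, whereas Dpysl4 passed in ITPK1-WT cells at −1.15. Dpysl4 and Cd27 were also picked after their values were seen.

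Most genes had nearly the same abundance in both pools. The difference (ITPK1-KO minus ITPK1-WT, mean over the 3 sgRNAs) had a median of 0.09 over the 76 genes, and the median SD over the sgRNAs of a gene was 0.10. The 24 non-targeting sgRNAs had a median of 0.09 by the same measure, because the median of their ratios is not the ratio of their medians, and ran from −0.11 to 0.20. Small differences are therefore to be read against 0.09, whereas the calls below take direction and fold from 0. Measured against the median of all sgRNAs instead, every difference was lower by 0.11. The SD of the non-targeting differences was 0.098, which is 2.65 times the 0.037 that counting alone gives for 2 sgRNAs at the median depth. Of the 228 targeting sgRNAs, 163 lay within the non-targeting range.

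A gene was called lower or higher in ITPK1-KO cells when all 3 of its sgRNAs differed in that direction and their mean reached 1.5-fold (0.58 on the log2 scale). Of the 76 genes, 4 were lower (5.26%) and 1 was higher (1.32%). No non-targeting sgRNA passed the fold, against 10 targeting sgRNAs on the lower and 4 on the higher side. The 4 lower genes were Ipmk, Txnl4b, Grb2 and Daxx, and the higher gene was Itpk1. The 71 other genes had means between −0.32 (Bbc3) and 0.35 (Eif5b).

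**Figure D2:**
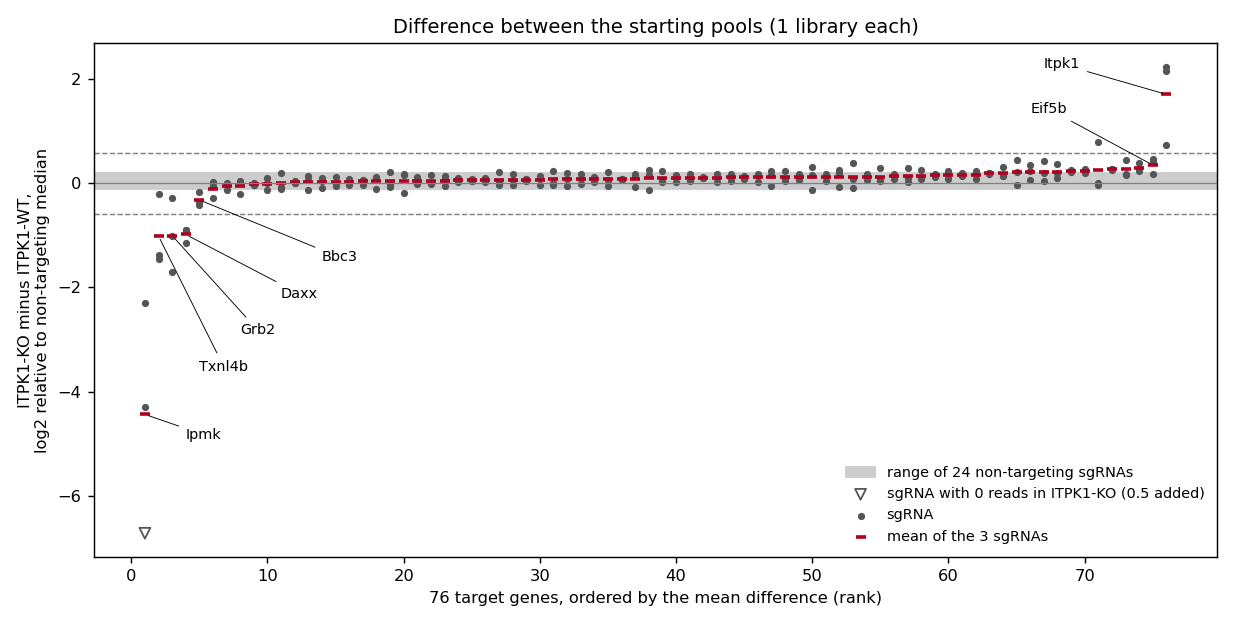
Difference between the pools (ITPK1-KO minus ITPK1-WT, log2 relative to the non-targeting median, 1 library each) for 76 genes in order of their mean; points are sgRNAs, red bars the mean of 3, the grey band the range of the 24 non-targeting sgRNAs (−0.11 to 0.20) and the dashed lines 1.5-fold. Beyond the dashed lines lie the means of Ipmk, Txnl4b, Grb2 and Daxx below and of Itpk1 above.

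Itpk1 is the gene that separates the pools by design, and its sgRNAs check the labels. They were scarce where the gene was still present. In ITPK1-WT cells sg-1, sg-2 and sg-3 had 710, 1272 and 344 reads, or 21.7%, 39.0% and 10.5% of the non-targeting median. In ITPK1-KO cells they had 2735, 1828 and 1406 reads, or 96.4%, 64.5% and 49.6%. Each sgRNA was more abundant in the ITPK1-KO pool, by 2.15, 0.73 and 2.23 on the log2 scale. The mean was 1.70 (SD 0.85 over 3 sgRNAs), or 3.26-fold, and sg-2, the least depleted in ITPK1-WT cells, differed least. As a share of all reads, Itpk1 sgRNAs made up 0.414% (95% Wilson interval 0.397 to 0.431) in ITPK1-WT and 1.16% (1.13 to 1.19) in ITPK1-KO cells. With the gene already deleted, their median of −0.63 lay near the −0.44 of all genes.

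Ipmk showed the opposite pattern and the largest difference of all genes. Its sg-1 went from 1131 reads in the ITPK1-WT to 200 in the ITPK1-KO library, and sg-3 from 1008 to 44. The third sgRNA, sg-2, was rare in ITPK1-WT cells (60 reads) and had 0 reads in ITPK1-KO cells, which allows a share of up to 0.000581% of the reads. Relative to the non-targeting median, sg-1 differed by −2.29 and sg-3 by −4.30, and sg-2 was at least 17.4-fold lower, taking 3 reads as the upper limit of its library. The mean over the 3 sgRNAs was −4.44 (SD 2.21) with 0.5 reads added, −3.57 (SD 1.11) with sg-2 at its limit and −3.30 without sg-2. By reads, the gene held 0.391% (95% Wilson interval 0.375 to 0.408) of the ITPK1-WT and 0.0472% (0.0417 to 0.0535) of the ITPK1-KO library. Ipmk knockouts were thus already scarce in ITPK1-WT cells, at 22.4% of 3 median non-targeting sgRNAs by summed reads, against 2.87% with ITPK1 deleted.

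Daxx, a histone chaperone first found as a partner of the death receptor Fas, was the clearest difference for a gene that was not scarce in ITPK1-WT cells. Its sgRNAs had 2264, 1898 and 2305 reads in the ITPK1-WT pool and 1050, 879 and 906 in the ITPK1-KO pool. All 3 stood above 1/2 of the non-targeting median in the first pool and below it in the second. The sgRNAs agreed closely, with differences of −0.90, −0.91 and −1.14 and a mean of −0.98 (SD 0.14). Summed reads of Daxx came to 66.0% of 3 median non-targeting sgRNAs with ITPK1 present and to 33.3% with it deleted. Daxx was 1 of 5 genes whose 3 sgRNAs all lay below the whole non-targeting range. The others were Ipmk, Txnl4b, Grb2 and Bbc3.

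Grb2 and Txnl4b, scarce in both pools, were scarcer still in ITPK1-KO cells, but their sgRNAs agreed less. For Grb2 the differences of sg-1, sg-2 and sg-3 were −1.71, −1.02 and −0.29 (mean −1.01, SD 0.71). The call for Grb2 rests on sgRNAs with few reads: only sg-3 had at least 100 reads in both libraries, and that sgRNA alone gave −0.29. For Txnl4b the differences were −1.46, −1.38 and −0.20 (mean −1.01, SD 0.70), and sg-1, which alone had at least 100 reads in both, gave −1.46. In both genes the deviating sgRNA was on the same side of 0 as its partners.

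Eif5b, the third of the growth genes, differed in the other direction. Its sgRNAs stood 0.41, 0.18 and 0.46 higher in ITPK1-KO cells (mean 0.35, SD 0.15), short of 1.5-fold, with sg-2 within the non-targeting range. Scarcity in both pools therefore did not go with a single direction of difference.

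Smaller differences, with all 3 sgRNAs outside the non-targeting range, were seen for 4 further genes. Bbc3 encodes PUMA, a BH3-only protein that p53 induces. It had 2572, 1735 and 2239 reads in the ITPK1-WT pool and 1659, 1331 and 1513 in the ITPK1-KO pool, a mean difference of −0.32 (SD 0.13), and did not reach 1.5-fold. On the higher side, 4 genes had all 3 sgRNAs above the non-targeting range. Besides Itpk1 they were Tmem57, which encodes the membrane protein macoilin (0.30, SD 0.085), the TNF receptor-associated kinase Ripk1 (0.26, SD 0.018) and Bad (0.23, SD 0.011). Casp12, a caspase linked to endoplasmic reticulum stress, had a similar mean (0.27, SD 0.16), with 2 of its sgRNAs inside that range. The Bad sgRNAs stood at 0.22, 0.24 and 0.22, and their reads ran from 108 to 2193 in the ITPK1-WT library. With 108 and 111 reads sg-2 has a wide counting error, so this closeness does not measure the precision of the value.

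Over all 76 genes 5.26% were called lower and 1.32% higher, and 19.7% (ITPK1-WT) and 15.8% (ITPK1-KO) were scarce. For lists as short as the pathways here, counts of 0 or 1 cannot be set apart from those shares and are given as a description. Of the 4 necroptosis effectors none was scarce or called, and all had mean differences between 0.11 (Zbp1, a nucleic acid sensor) and 0.12 (Pgam5, a mitochondrial phosphatase), with a median of 0.11 against 0.09 over all genes. The 9 TNF family receptors on the list, which leaves out Tnfrsf19 (0.046), had none either, from 0.017 for Tnfrsf1b, the second TNF receptor, to 0.21 for the lymphotoxin receptor Ltbr (median 0.073). Among 8 genes that act next to these receptors, Daxx was the only one called, and Ripk1 had the highest value (median 0.075). Of 8 BCL2 family genes, with Bbc3 lowest and Bad highest, and of 7 genes of the apoptosome and its caspases, from 0.017 for CASP2 to 0.20 for the apoptosome scaffold APAF1, none was called (medians 0.066 and 0.060). The 4 pyroptosis genes ran from 0.11 for the pore former Gsdmd to 0.27 for Casp12 (median 0.18). The 3 ferroptosis enzymes ran from 0.071 (Acsl4) to 0.15 for the lipoxygenase Alox15, and the 3 interferon receptor subunits from 0.025 (Ifngr2) to 0.26 (Ifnar1). The value of Ifnar1 came from its rare sg-3 (0.79); sg-1 and sg-2 stood at −0.026 and 0.010. The tissue-restricted genes ran from 0.052 for the junctophilin Jph3 to 0.22 for Sycp2 (median 0.14). With every value lower by 0.11 against the median of all sgRNAs, any mean between 0 and that shift changes sign, as does the median of 0.09 over all genes. Among the genes named by the rule these are Acsl4, Fadd, Tnfrsf1b, CASP2, Ifngr2 and Jph3. Genes outside the rule do so as well, such as the receptors Tnfrsf1a (0.021), Cd27 (0.038) and Fas (0.10).

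The base composition of the sgRNAs moved with the small differences. Across the 228 targeting sgRNAs, which share 2 libraries, GC content and the difference had a Spearman correlation of −0.24. The median difference was 0.16 for the 50 sgRNAs under 45% GC, 0.076 for the 115 between 45% and 55%, and 0.046 for the 63 above 55%. The sgRNAs of called genes (sg-1 to sg-3) had GC contents of 60%, 45% and 65% for Itpk1 and 45%, 60% and 65% for Daxx. They were 45%, 55% and 45% for Ipmk, 40%, 60% and 60% for Grb2, and 55%, 55% and 60% for Txnl4b. Of these only Grb2 sg-1 lay under 45%. GC content had a weaker relation to abundance itself, with a correlation of 0.11 (ITPK1-WT) and 0.041 (ITPK1-KO). The part of GC content in the differences was not tested.

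Cells recovered from the 4 vehicle mice gave the same quantity in libraries that the starting comparison did not use. They descend from the same transduced pools, so they repeat the 16 h in the mouse, sorting, amplification and sequencing but not the transduction. A p-value from them rests on the spread between mice within 1 pool per background. The fit shares that spread across genes or sgRNAs, so a p-value does not measure the spread of 1 gene over its own mice. The very small p-values below depend on this sharing. In edgeR's quasi-likelihood test on the reads summed per gene, 30 of 76 genes differed between the backgrounds (39.5%), 17 higher (22.4%) and 13 lower (17.1%) in ITPK1-KO cells. DESeq2's size factors in place of the non-targeting scaling gave 18 higher and 22 lower, and leaving out mouse 2 or mouse 3 left 11 higher. With at least 1.5-fold also required, 1 gene was higher and 4 were lower, and all 5 genes called in the starting pools changed in the same direction here.

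Itpk1 differed by 1.90, 2.01, 1.93 and 1.96 in mice 1 to 4 (mean over sgRNAs, on the scale used above), against 1.70 at the start. All 4 mice lay above the starting value. Daxx differed by −1.15, −1.16, −1.22 and −1.07, against −0.98. Grb2 differed by −0.72, −1.04, −1.10 and −1.11, with the starting −1.01 inside that range. For Txnl4b the values were −1.17, −0.98, −1.51 and −1.32, which also enclosed its start of −1.01. Ipmk stood at −3.87, −3.27, −3.55 and −3.11, all above its starting −4.44, which rests on the 0 reads of sg-2. For its 2 more abundant sgRNAs the vehicle means were −2.16 ± 0.25 (sg-1) and −3.93 ± 0.35 (sg-3, SD, n = 4), against −2.29 and −4.30 at the start.

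Summed reads gave log2 differences of 1.76 for Itpk1 (SE 0.039, edgeR adjusted p = 2.91e-167), −2.70 for Ipmk (SE 0.079, edgeR adjusted p = 1.23e-125), −1.16 for Daxx (SE 0.040, edgeR adjusted p = 1.89e-103), −1.29 for Txnl4b (SE 0.11, edgeR adjusted p = 6.92e-28) and −0.77 for Grb2 (SE 0.093, edgeR adjusted p = 1.75e-14). Reads summed over sgRNAs weigh the abundant ones most, so the value for Ipmk is smaller than its mean over sgRNAs. Each of the 3 sgRNAs of these 5 genes passed the test on single sgRNAs in the direction of its gene. On that test 79 of 252 sgRNAs were called (31.3%). The non-targeting NT-lib sg-20 (0.13), NT-lib sg-3 (−0.096) and NT-lib sg-24 (0.092) were among those called. Called differences as small as these are therefore also seen without a target gene.

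Of the smaller starting differences, Bbc3 was lower in all 4 vehicle mice (−0.35 ± 0.038, SD, n = 4; edgeR adjusted p = 5.99e-26), close to −0.32 at the start. Tmem57 was higher (0.28 ± 0.034, edgeR adjusted p = 7.39e-21, n = 4), near its start of 0.30, and Eif5b as well (0.48 ± 0.082, edgeR adjusted p = 9.87e-07, n = 4), above its start of 0.35. Gene values with an SD or per mouse, here and in the next paragraph, are means over sgRNAs. Their p-values come from the test on summed reads, which gave a smaller difference of 0.38 (SE 0.071) for Eif5b. Ripk1 was higher by 0.14 ± 0.072 (SD, n = 4; edgeR adjusted p = 5.30e-06), below its start of 0.26. With each library pair centred on the median of its non-targeting differences, Ripk1 stood at 0.11 against 0.18 at the start. That centred start lay inside the range of the mice. The call for Ripk1 was lost when all 8 mice were fitted with the arm as a term (0.023, edgeR adjusted p = 0.525). Casp12 was higher by 0.10 ± 0.014 (edgeR adjusted p = 0.00127, n = 4), with all 4 mice under the starting 0.27. Bad was higher by 0.12 ± 0.10 (edgeR adjusted p = 0.0254, n = 4). Its values in mice 1 to 4 were 0.19, 0.21, −0.0076 and 0.083, all under the starting 0.23. Centred as for Ripk1, Bad stood at 0.090 against 0.14 at the start, and that centred start lay inside the range of the mice.

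Ifnar1 and Acsl4 were among the many genes, counted below, whose starting value lay outside the range of the vehicle mice. Ifnar1 stood at 0.019, −0.17, −0.32 and −0.21 in mice 1 to 4 (edgeR adjusted p = 3.38e-05), against 0.26 at the start, where sg-3 with 45 and 68 reads set the value. Its abundant sg-1 and sg-2 stood at −0.18 ± 0.050 and −0.15 ± 0.10 (SD, n = 4). Acsl4 stood at 0.26, 0.21, 0.24 and 0.19 (edgeR adjusted p = 0.000136), all above its starting 0.071. Whether vehicle and starting values differ was not tested, as the start has 1 library per pool. The read-file names put the starting libraries in another numbering series than the vehicle mice, so the mouse and that series cannot be told apart.

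**Figure D3:**
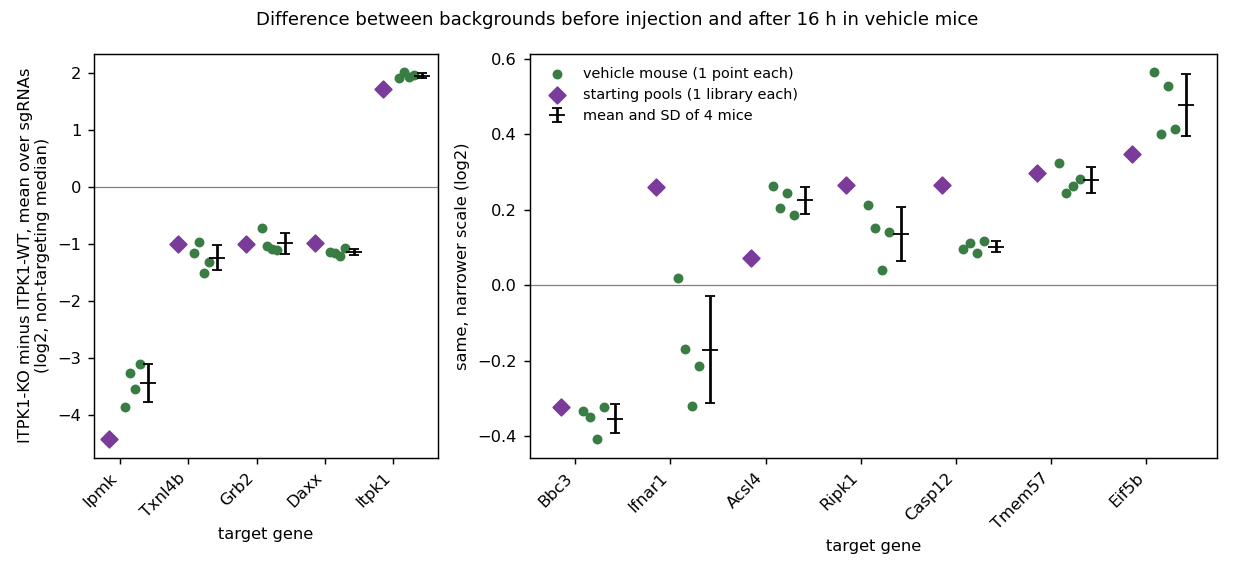
Difference between backgrounds (ITPK1-KO minus ITPK1-WT, mean over the sgRNAs of a gene, log2 relative to the non-targeting median) in the starting pools (diamonds, 1 library each) and in 4 vehicle mice (points, with mean and SD beside them); the 2 panels have different scales. Itpk1, Ipmk, Daxx, Grb2 and Txnl4b kept their direction in every mouse, whereas Ifnar1 stood at 0.26 at the start and below 0 in 3 of 4 mice.

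Over all 76 genes, the starting difference lay within the range of the 4 vehicle mice for 19, above it for 52 and below it for 5. This lean upward follows the non-targeting sgRNAs, whose median difference was 0.09 at the start and between −0.00034 and 0.067 in the mice. With each library pair centred on the median of its non-targeting differences, 46 genes lay inside the range, 20 above and 10 below, and the median distance from the vehicle mean was 0.042. By that measure Ipmk, Ifnar1, Itpk1 and Acsl4 departed by more than 0.2. The size of the departure of Ipmk (1.05) depends on the 0 reads of its sg-2. Before centring, the vehicle means of its sg-1 (−2.16) and sg-3 (−3.93) also lay above their starting values of −2.29 and −4.30.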

How the data were processed

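sgRNA cassettes were amplified from genomic DNA and sequenced. The values used are raw counts as deposited, each a whole number of reads of 1 sgRNA. Per the design text in the labels, reads were matched to the sgRNA library and reads with mismatches were dropped. MAGeCK 0.5.6 is named for the scoring, and the aligner is not given in the sources used here. Columns were matched to samples by the sample number in the read-file names. The sgRNA sequences and the legend naming each mouse's treatment are the authors' deposited tables (another unit, text). The authors' MAGeCK tables hold no starting library and were not used.

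The starting pools were compared as described in the report, with Python 3.11.15. Vehicle libraries were fitted in R 4.3.3 with edgeR 4.0.16: features with a mean of at least 10 reads, libraries scaled by the median non-targeting count, background as the only term, Benjamini-Hochberg threshold 0.05, and SE taken as the fold divided by the root of F. Mouse numbers pair the libraries, since both backgrounds were sorted from the same mouse. The correlation of their deviations from group means ran from 0.0077 to 0.10 over 237 sgRNAs. Procedures were tested on simulated data. At a change of 0.5 on the log2 scale 98.8% of sgRNAs (of 252) and 100% of genes (of 76) were recovered for the vehicle comparison.

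The genes named were Itpk1 and Ipmk, up to 12 scarce genes, the called genes, the 5 highest and lowest with 3 agreeing sgRNAs, and the extremes of each list. Members and lists were chosen with earlier results of these data known. Symbols of 75 of 76 genes were found in RefSeq's table (GRCm38.p6), used for names only. Alternatives covered the reference, pseudocount, gene summary, fold, filters, depth, normalization (TMM, DESeq2 1.42.0), test, block and mice left out.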

Additional observations from a re-analysis of the deposited data

How the results depend on the processing

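Daxx, Grb2, Ipmk and Txnl4b were the genes called lower under 8 alternatives of 11 (other references, 5 reads as pseudocount, median or summed reads, thinning and the deviating sgRNA left out), as also with the non-targeting differences as reference, which was chosen after seeing the data. Bbc3 joined at the lowest fold tried, Daxx was lost at 2-fold, and Grb2 was lost when sgRNAs under 100 reads were left out. Itpk1 was called higher under every alternative tried, and the lowest fold gave 2 genes, with Eif5b. The number of scarce genes moved most. For ITPK1-WT it was 7 against the median of all sgRNAs, 6 against an equal share of reads, 33 at 1.5-fold and 4 at 4-fold. For ITPK1-KO it was 7 against an equal share of reads, 26 at 1.5-fold and 4 at 4-fold.

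In vehicle mice, TMM gave 20 and DESeq2's size factors 22 genes lower in ITPK1-KO cells. With at least 1.5-fold required, a rule chosen after seeing the data, 3 sgRNAs and 1 gene were higher and 12 sgRNAs and 4 genes lower. With a mouse left out, genes higher ran from 11 to 20, genes lower from 12 to 16, sgRNAs higher from 29 to 36 and sgRNAs lower from 33 to 41. With the mouse as a replicate block, 23 genes were higher and 17 lower, and 54 sgRNAs were higher and 43 lower. The paired fit kept all 30 genes and all 79 sgRNAs, and among the genes named it changed the call of Gsdmd alone (0.043, edgeR adjusted p = 0.0483). Depth limits the rarest sgRNAs: 3 reads are 0.000534% of the ITPK1-WT and 0.000581% of the ITPK1-KO library.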
